A study of Mus musculus with 10 samples.

Results

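The 9 genes described here make up the core of the MHC class II pathway: H2-Aa, H2-Ab1 and H2-Eb1, Cd74, H2-DMa, H2-DMb1, H2-DMb2, Ciita and Ctss. They were chosen by name, as the rows of the count table whose Ensembl identifier, version ignored, belongs to one of these symbols, and all 9 were found among 53379 genes. The libraries came from MC38, a mouse colon carcinoma line, grown in C57BL/6J mice on a control diet or a high-fat diet. At day 21 after implantation, dTomato-positive cells that lacked CD45, the surface protein common to leukocytes, were sorted from the tumors, with 1 library per mouse and 5 mice per diet. The sources used here do not give the time on diet, what the diets held, or the sex and age of the animals. The 5 libraries of a group carry separate mouse numbers, so the p-values measure the spread between mice.

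MHC class II molecules display peptides from internalized proteins to CD4 T cells. An alpha and a beta chain assemble with the invariant chain, encoded by Cd74, which fills the peptide groove and guides the complex to endosomes. There proteases, above all cathepsin S (Ctss), cut the invariant chain down to a remnant called CLIP, and H2-DM exchanges CLIP for peptide. Dendritic cells, B cells and macrophages carry class II constitutively or after activation. Many other cells make it only after exposure to interferon gamma, which induces Ciita, the coactivator that drives transcription of the chain genes. Because the sort removed CD45-bearing cells, the question put to these genes was whether they moved from library to library with leukocyte transcripts, with interferon-induced transcripts, or with diet.

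The 10 libraries held between 16513388 and 18653705 counts, and 14337 genes passed the filter on low counts. Epithelial markers were scarce: 6 genes (Krt8, Krt18, Krt19, Epcam, Cdh1 and Cldn7) summed to 21 to 104 counts per library, Cdh1 being the only one above the filter, while 7 fibroblast-type genes led by Dcn, Pdgfra and Pdgfrb summed to 20815 to 36952. The dTomato transcript was not analysed here. Leukocyte transcripts were present in every library in spite of the CD45 gate, and control mice 3, 4 and 1 stood apart in those of macrophages. The level of each marker list was taken as the mean log2 CPM of its tested genes, CPM being counts scaled to a common library size with TMM factors. The macrophage level (16 of 16 genes tested, among them C1qa, C1qb and Lyz2) was 4.19 in control mouse 3, 4.44 in control mouse 4 and 3.04 in control mouse 1, and at most 1.93 in the other 7 libraries. The summed counts of these genes ran from 1325 to 9366 in control and from 585 to 1339 in high-fat libraries, and no list had a member at 0 in all libraries except the wider class II list described below.

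Cd74, the invariant chain, was the most abundant of the 9 genes. Its level was 104.2, 27.1, 225.2, 316.4 and 37.9 CPM in control mice 1 to 5 and 17.4, 49.0, 26.7, 34.01 and 36.6 CPM in high-fat mice 1 to 5. Control mice 1, 3 and 4 lay above all high-fat libraries, control mice 2 and 5 lay among them, and the highest library exceeded the lowest 18.1-fold. Cd74 (ENSMUSG00000024610.14) lies on chromosome 18, GRCm38, from 60803848 to 60812652 on the plus strand, and its exons share 12 bases with the microRNA gene Mir5107.

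H2-Aa and H2-Ab1 encode the alpha and beta chains of I-A, the class II molecule that C57BL/6 mice place on the cell surface. H2-Aa was at 26.3, 7.21, 62.5, 90.5 and 11.1 CPM in control mice 1 to 5 and at 5.78, 13.3, 7.51, 10.9 and 12.1 CPM in high-fat mice 1 to 5. H2-Ab1 was at 35.2, 8.75, 72.2, 102.1 and 13.1 CPM in the control mice and at 7.50, 15.7, 8.61, 12.5 and 13.6 CPM in the high-fat mice. The same 3 control libraries were above every high-fat library, and the groups overlapped for both genes. The chains kept close proportions while their levels ran over 15.7-fold and 13.6-fold ranges: the ratio of H2-Aa to H2-Ab1 counts stayed between 0.746 and 0.888 in the 10 libraries. H2-Aa (ENSMUSG00000036594.14) lies on chromosome 17 from 34282744 to 34287823 on the minus strand and H2-Ab1 (ENSMUSG00000073421.5) on chromosome 17 from 34257689 to 34269419 on the plus strand.

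H2-Eb1 encodes the I-E beta chain, which has no functional alpha partner in C57BL/6 mice, so that I-E is not displayed. Its transcript was nevertheless present, at 22.2, 4.83, 51.6, 73.5 and 8.71 CPM in control mice 1 to 5 and at 5.36, 10.8, 5.50, 10.3 and 9.62 CPM in high-fat mice 1 to 5. The libraries fell in nearly the order seen for I-A, with control mice 4, 3 and 1 highest, and the groups overlapped. H2-Eb1 counts were 0.552 to 0.821 times those of H2-Ab1, and Cd74 counts 2.33 to 3.13 times. H2-Eb1 (ENSMUSG00000060586.10) lies on chromosome 17 from 34305867 to 34316674 on the plus strand.

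Ctss, the cathepsin that trims the invariant chain, followed the same libraries although it lies on another chromosome. Its level was 28.2, 5.68, 72.7, 91.0 and 12.01 CPM in control mice 1 to 5 and 6.55, 11.7, 6.96, 9.70 and 11.4 CPM in high-fat mice 1 to 5. Control mice 4, 3, 1 and 5 lay above all high-fat libraries and control mouse 2 below all of them, the lowest of the 10. Ctss counts stayed between 0.209 and 0.375 times those of Cd74. Ctss (ENSMUSG00000038642.10) lies on chromosome 3 from 95526786 to 95556403 on the plus strand.

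**Figure D1:**
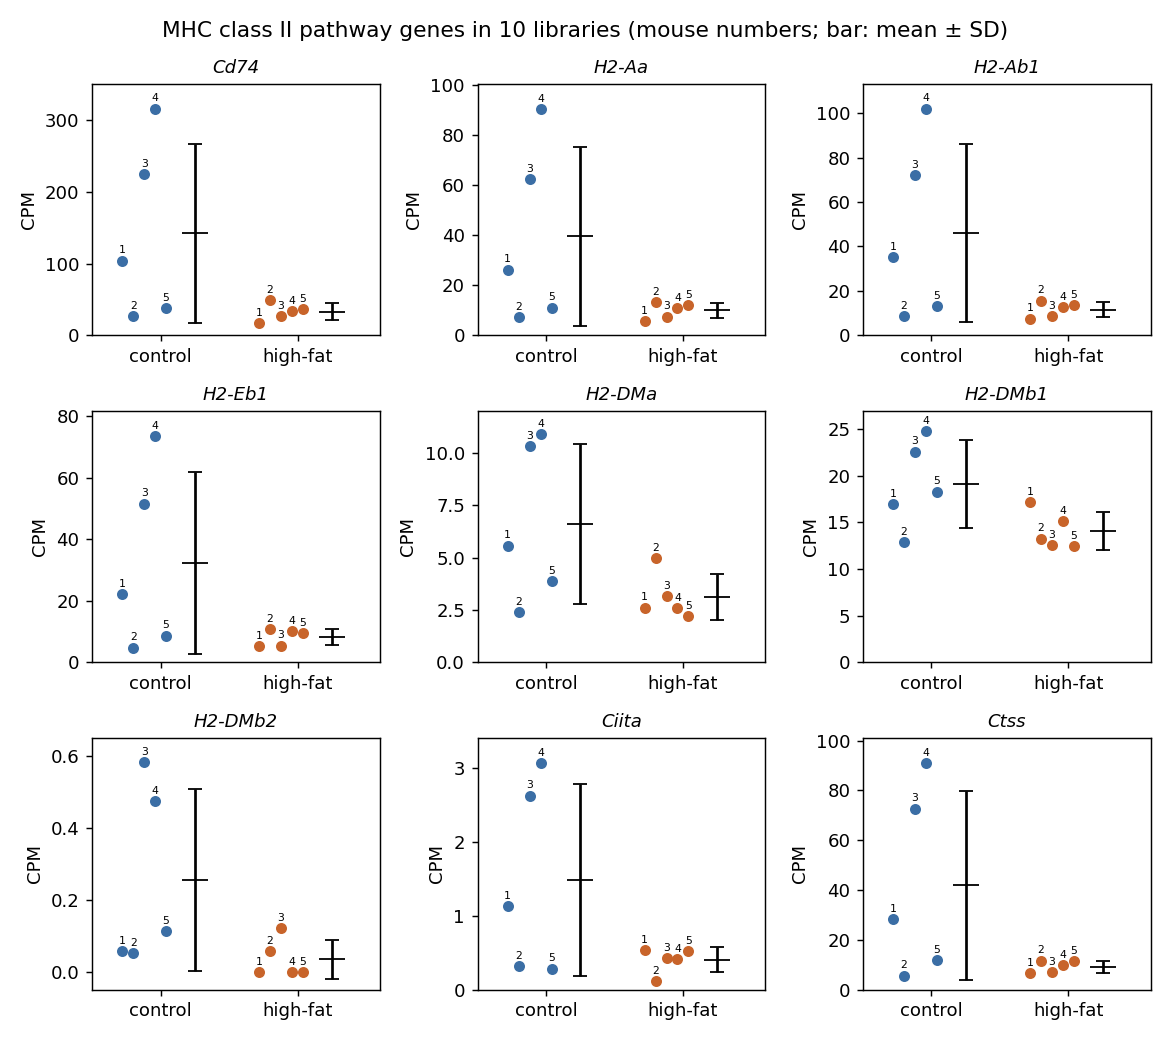
Level of each of the 9 genes in CPM (vertical axes, linear, one scale per gene) in control and high-fat libraries, with points numbered by mouse and bars at the mean ± SD over 5 mice. Control mice 3 and 4 are the highest libraries in every panel, control mouse 2 lies among or below the high-fat mice in each, and H2-DMb1 has the narrowest range, 1.99-fold.

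H2-DM, the editor of the peptide groove, behaved differently in its chains. H2-DMa, the alpha chain, was at 5.58, 2.39, 10.3, 10.9 and 3.87 CPM in control mice 1 to 5 and at 2.62, 4.96, 3.17, 2.60 and 2.22 CPM in high-fat mice 1 to 5. H2-DMb1, a beta chain, was at 16.9, 12.9, 22.6, 24.8 and 18.3 CPM in the control mice and at 17.2, 13.3, 12.5, 15.1 and 12.4 CPM in the high-fat mice. Control mice 3 and 4 were again the highest for both, but H2-DMa ran over only 4.91-fold and H2-DMb1 over only 1.99-fold. The ratio of H2-DMb1 to Cd74 counts therefore ran from 0.0783 in control mouse 4 to 0.983 in high-fat mouse 1, where both transcripts were nearly equal in counts. H2-DMa (ENSMUSG00000037649.9) lies on chromosome 17 from 34119541 to 34139101 on the plus strand, with 360 exonic bases opposite Brd2. Since the strand setting of the counting is not known, reads from Brd2 in that overlap cannot be told apart from those of H2-DMa.

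H2-DMb2, the other beta chain, was almost absent. It had 1, 1, 10, 9 and 2 counts in control mice 1 to 5 and 0, 1, 2, 0 and 0 in high-fat mice 1 to 5, 26 counts in all, so that only control mice 3 and 4 were above the limit of 3 counts that an observed 0 still allows. Of all 50-base windows along its longest transcript 29.5% recur in other transcripts, chiefly H2-DMb1, and 27.2% of those of H2-DMb1 recur in H2-DMb2, so the split of reads between these neighbours is uncertain. H2-DMb1 (ENSMUSG00000079547.3) lies on chromosome 17 from 34153072 to 34160230 and H2-DMb2 (ENSMUSG00000037548.14) from 34143307 to 34151555, both on the plus strand.

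Ciita, the coactivator of the chain genes, was also low. It had 19, 6, 45, 58 and 5 counts in control mice 1 to 5 and 9, 2, 7, 7 and 9 counts in high-fat mice 1 to 5, or 1.48 ± 1.30 against 0.404 ± 0.169 CPM (SD, n = 5). Control mice 4, 3 and 1 were once more above every high-fat library. The intervals of such counts are wide, and neither Ciita nor H2-DMb2 passed the filter on low counts, so neither was in the main tests. With no filter, edgeR called 0 of 9 members for diet, against 53 of 29047 genes. Ciita (ENSMUSG00000022504.9) lies on chromosome 16 from 10480059 to 10528418 on the plus strand, with 329 exonic bases opposite Dexi.

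Levels of different genes were compared per length, as median RPKM (CPM per kilobase of merged exons) over the 10 libraries. Cd74 was highest at 22.2 RPKM, followed by H2-DMb1 at 9.53, Ctss at 8.498, H2-Ab1 at 5.195, H2-Eb1 at 5.12, H2-Aa at 3.05, H2-DMa at 1.02, Ciita at 0.0499 and H2-DMb2 at 0.0341. Most neighbours in this order kept it in all 10 libraries. H2-DMb1 exceeded Ctss in only 5 of 10 and Ciita exceeded H2-DMb2 in 6 of 10, so the order of these pairs changed between libraries. H2-Ab1 exceeded H2-Eb1 in 9 of 10. The differences within pairs were not tested.

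The chain genes carry a known promoter arrangement, an X box bound by the RFX complex followed by a Y box bound by NF-Y, on which Ciita assembles. The RefSeq promoter table of GRCm38.p6 had entries for 6 of the 9 genes: H2-Aa, H2-Eb1, H2-DMa, H2-DMb1, H2-DMb2 and Ctss. The 250 bases before each start were searched on both strands for CTNNNAAC (an X-type core), TGATTGG (a Y-type core, the inverted CCAAT letters with flanks) and GAAANNGAAA (an interferon-response-type element), and for the X core followed by the Y core on the gene's strand with 10 to 35 bases between them. Alone the cores are common, in 35.7%, 7.23% and 2.98% of 32851 promoter windows, whereas the ordered X and Y pair was found in 30 windows, 0.0913%. The motifs were chosen with these promoters in view, so the shares are a description.

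The ordered pair was present in H2-Aa, H2-Eb1, H2-DMb1 and H2-DMb2, with gaps of 26, 25, 26 and 26 bases, and absent from the windows of H2-DMa and Ctss. H2-DMb1, whose transcript moved least, and H2-Aa and H2-Eb1, which moved over 15-fold, thus share these letters. Ctss instead held an interferon-response-type match 21 bases before its start. The 150 bases upstream of the annotated start are shown for the 2 chain genes and for Ctss, which followed the chain genes without that pair, 5′ to 3′ on the gene's strand, with capitals marking the X core and then the Y core in H2-Aa and H2-Eb1 and the interferon-type element in Ctss.
H2-Aa, chr17:34287824-34287973, minus strand: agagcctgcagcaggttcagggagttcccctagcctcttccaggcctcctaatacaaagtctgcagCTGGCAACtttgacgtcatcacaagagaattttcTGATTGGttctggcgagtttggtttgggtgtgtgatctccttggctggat
H2-Eb1, chr17:34305717-34305866, plus strand: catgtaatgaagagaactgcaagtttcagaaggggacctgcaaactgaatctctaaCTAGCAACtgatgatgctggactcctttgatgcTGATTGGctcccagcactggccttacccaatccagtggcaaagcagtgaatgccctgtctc
Ctss, chr3:95526636-95526785, plus strand: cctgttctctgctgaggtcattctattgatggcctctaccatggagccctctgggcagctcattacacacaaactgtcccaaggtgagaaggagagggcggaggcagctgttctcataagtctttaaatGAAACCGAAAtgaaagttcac
A match is a run of letters and not a measured binding site.

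Between the diets, all 7 tested members were lower on average in high-fat mice and none passed the threshold, an adjusted p under 0.05 in the quasi-likelihood test of edgeR, with p-values adjusted over all genes by the Benjamini-Hochberg method. Mean Cd74 was 142.2 ± 125.3 CPM in control and 32.7 ± 11.7 CPM in high-fat mice (SD, n = 5), a log2 difference of -2.12 (SE 0.63) with an edgeR adjusted p of 0.237. The difference was -1.99 (SE 0.64) for H2-Aa, -1.998 (SE 0.61) for H2-Ab1, -1.95 (SE 0.66) for H2-Eb1 and -2.18 (SE 0.66) for Ctss. It was smaller for H2-DMa, -1.08 (SE 0.40), and for H2-DMb1, -0.44 (SE 0.16), and edgeR adjusted p lay between 0.237 and 0.303 over the 7. Thus 0 of 7 members were called lower, where 0.0209% of all tested genes were. DESeq2 and limma-voom, with or without sample quality weights, called none of the 7 either. Of all 14337 tested genes, DESeq2 called 210 lower and limma-voom without weights 2. With those weights, an alternative added after the data were seen, the log2 difference was -1.35 for Cd74 and -0.98 for H2-Eb1, and 0 of 7 were under 0.05 before adjustment. The DESeq2 adjusted p ran from 0.057 for Cd74 to 0.209 for H2-DMb1. That of limma-voom without weights ran from 0.374 for H2-DMb1 to 0.568 for H2-Eb1. At an unadjusted p under 0.05 edgeR had 7 of 7 lower, against 6.62% of all tested genes. The median difference over the 7 was -1.99 on the log2 scale.

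The spread within the control mice was as large as the difference between diets: Cd74 ran over 11.7-fold among controls and 2.81-fold among high-fat mice. Without control mice 3 and 4 the log2 differences shrank to -0.78 for Cd74, -0.58 for H2-Aa, -0.71 for H2-Ab1, -0.51 for H2-Eb1, -0.34 for H2-DMa, -0.18 for H2-DMb1 and -0.72 for Ctss, and none passed. In these bulk libraries, fewer cells of a type and less RNA per cell cannot be told apart.

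The marker levels moved differently with diet. The macrophage level was 3.03 ± 1.29 in control and 1.22 ± 0.481 in high-fat mice (mean log2 CPM, SD, n = 5), with an exact two-sided permutation p of 0.0238, or 0.0476 adjusted over the 4 levels compared. The pan-leukocyte level, from 10 genes led by Itgb2, Laptm5 and Ptprc, the gene of CD45, was 2.36 ± 1.37 against 1.51 ± 0.690 and did not differ beyond its spread (exact permutation p = 0.238, adjusted 0.238). The interferon level, from 15 genes induced by interferon gamma and led by Gbp2, Irf1 and Tap1, ran the other way, 7.35 ± 0.447 against 7.81 ± 0.0849 (exact permutation p = 0.0714, adjusted 0.0952). A type I interferon list of 13 genes led by Rsad2, Ifit1 and Ifit3 was at 4.94 ± 0.504 against 5.66 ± 0.216 (exact permutation p = 0.0238, adjusted 0.0476). Endothelial markers, 7 genes led by Pecam1, Cdh5 and Vwf, summed to 311 to 471 counts in control and 399 to 613 in high-fat libraries. The log2 differences of the 3 tested were 0.08, 0.95 and 1.77. In edgeR 2 of them were under 0.05 before adjustment, against 5.45% of all tested genes higher at that level, and none after it. The part of endothelial cells in the class II differences was not tested. Class II genes were thus lower on average in the diet group whose interferon-induced transcripts averaged higher.

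Within each diet, the order of the libraries can be set beside the levels. Among control mice Cd74, H2-Aa, H2-Ab1, H2-Eb1 and Ctss all ran 4, 3, 1, 5, 2 from high to low. The macrophage and pan-leukocyte levels had the same order, and the interferon level differed only in that mice 3 and 4, at 7.80 each, were nearly equal. Among high-fat mice Cd74, H2-Aa, H2-Ab1 and Ctss ran 2, 5, 4, 3, 1, which is also the order of the macrophage level, and H2-Eb1 ran 2, 4, 5, 3, 1. The pan-leukocyte level ran 2, 3, 4, 5, 1 and the interferon level 4, 2, 5, 3, 1.

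Libraries with similar interferon levels could differ widely in class II. The interferon level was 7.80 in control mice 3 and 4 and 7.68 to 7.89 in the high-fat mice, yet Cd74 was at 225.2 and 316.4 CPM in the former and at 17.4 to 49.0 CPM in the latter. These 2 control libraries also had the highest macrophage levels, 4.19 and 4.44, against 0.606 to 1.93 in the high-fat mice. Control mouse 2 had the lowest interferon level of all, 6.80, with Cd74 at 27.1 CPM, inside the high-fat range. Its macrophage level of 1.596 was also inside the high-fat range of 0.606 to 1.93. Similar pan-leukocyte levels could go with unlike class II as well. Control mouse 1, at a pan-leukocyte level of 2.26, had Cd74 at 104.2 CPM. High-fat mice 2 and 3, at 2.28 and 2.05, had Cd74 at 49.0 and 26.7 CPM.

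**Figure D2:**
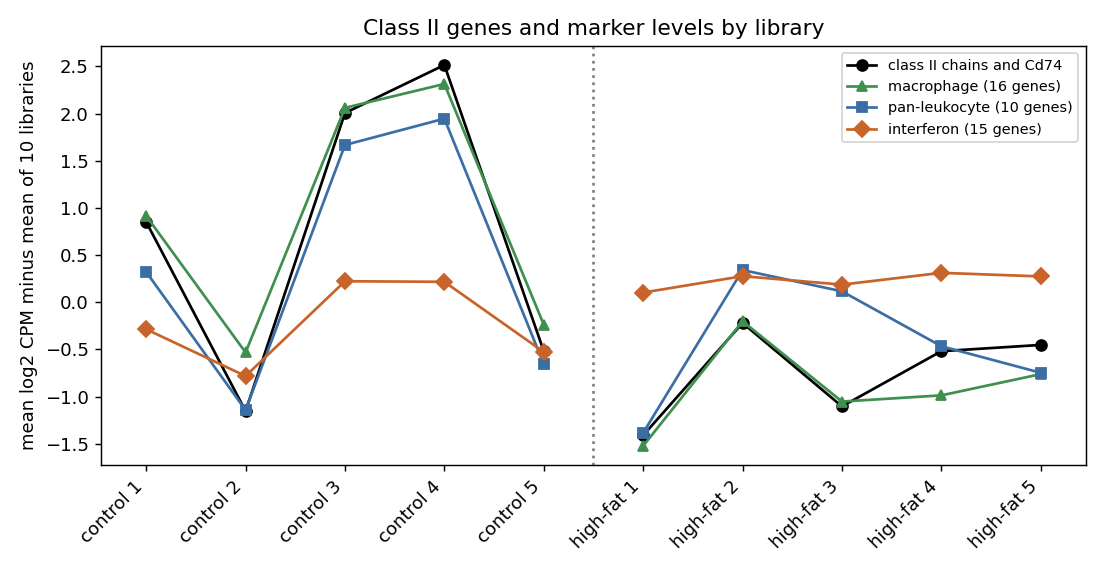
Mean log2 CPM of H2-Aa, H2-Ab1, H2-Eb1 and Cd74, and of the macrophage, pan-leukocyte and interferon lists, in each library, each minus its own mean over the 10 libraries (vertical axis, log2 units). In control mice all 4 lines rise and fall together, with mice 3 and 4 highest, while in high-fat mice the interferon line is flat and high (7.68 to 7.89 before centring) and the class II line stays near the macrophage line.

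**Figure D3:**
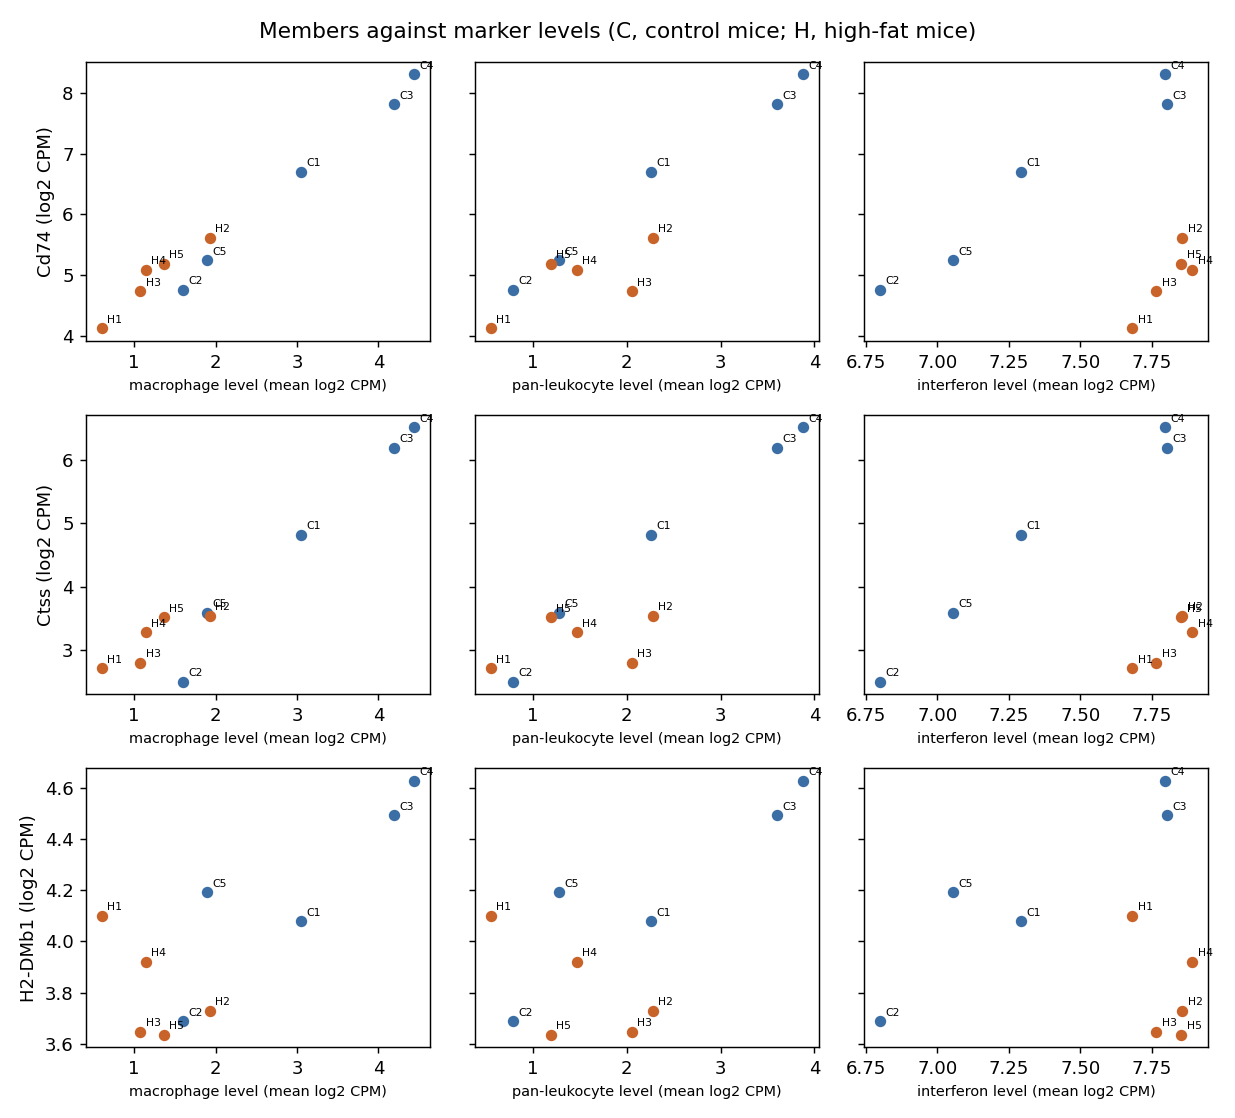
Log2 CPM of Cd74, Ctss and H2-DMb1 (rows) in each library against the macrophage, pan-leukocyte and interferon levels (columns, mean log2 CPM), with control mice C1 to C5 and high-fat mice H1 to H5. Cd74 and Ctss climb with the macrophage level across both diets, and H2-DMb1 spans a much smaller range. Against the interferon level the high-fat mice form a narrow column at 7.68 to 7.89. Control mice 3 and 4, at 7.80, stand above them in the same column.

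A joint edgeR fit with diet, the pan-leukocyte level and the interferon level did not separate these levels. No member passed for the pan-leukocyte slope, against 1.82% of all tested genes with a positive call, a share that includes 7 of the 10 list genes themselves. Slopes, in log2 CPM per log2 unit of level, were 0.44 (SE 0.19) for Cd74 and 0.54 (SE 0.21) for H2-DMa, both under 0.05 before adjustment, where 11.7% of all tested genes had a positive slope at that level, with edgeR adjusted p of 0.219 and 0.160. They were 0.22 for H2-Aa, 0.20 for H2-Ab1, 0.07 for H2-Eb1, 0.04 for Ctss and -0.23 for H2-DMb1. DESeq2 and limma-voom also called 0 of 7. The share of 1.82% is that of edgeR alone, and the DESeq2 count over all genes is given in the last section.

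For the interferon slope in the same fit, edgeR called 0 of 7 members and 0% of all tested genes. The slopes were 2.13 (SE 0.66) for Cd74, 2.84 (SE 0.63) for H2-Aa, 2.76 (SE 0.68) for H2-Ab1, 3.50 (SE 0.69) for H2-Eb1 and 3.62 (SE 0.58) for Ctss. H2-DMb1 had 1.41 (SE 0.48) and H2-DMa 0.36. Of the 7, 6 were under 0.05 before adjustment, against 5.93% of all tested genes with a positive slope, and their smallest edgeR adjusted p was 0.194, for Ctss. DESeq2 called 4 of 7 (H2-Aa, H2-Ab1, H2-Eb1 and Ctss), against 0.188% of all tested genes, and limma-voom none. With the macrophage level in place of the pan-leukocyte level, the interferon slope was 0.60 for Cd74, 1.45 for H2-Aa, 1.23 for H2-Ab1, 2.21 for H2-Eb1 and 2.47 for Ctss, over 1.5 times smaller than before for the first 4, and none passed. The macrophage slopes of that fit were 1.00 (SE 0.17) for Cd74, 0.71 for H2-Aa, 0.75 for H2-Ab1, 0.52 for H2-Eb1, 0.44 for Ctss, 0.69 for H2-DMa and -0.39 for H2-DMb1. They were larger than the pan-leukocyte slopes of the joint fit for the first 6 genes and none passed. Before adjustment 3 (Cd74, H2-Aa and H2-Ab1) were under 0.05, and the share of all tested genes at that level is not given here.

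The levels overlap too much for this fit to divide them. The variance of the pan-leukocyte slope was inflated 7.24-fold and that of the interferon slope 9.95-fold by the correlation among the terms, diet included. Correlations of the levels over all libraries pool the diets and leave diet out, so they do not measure this overlap. Over all 10 libraries the pan-leukocyte and interferon levels had Pearson's r = 0.400 (permutation p = 0.244) and Spearman's rho = 0.382 (p = 0.278), with r = 0.295 without control mice 3 and 4. The macrophage and interferon levels had r = 0.0678 (permutation p = 0.856) and rho = 0.00606 (p = 1.0), with r = -0.409 without these mice. The pan-leukocyte and macrophage levels had r = 0.897 (permutation p = 0.00112) and rho = 0.782 (p = 0.0104), with r = 0.597 without these mice. Adjusted over the 3 relations the Pearson p-values were 0.366, 0.856 and 0.00336 and the Spearman ones 0.417, 1.0 and 0.0312. With 5 mice per diet, no correlation was computed within a diet. The interferon level varied mainly in controls, with an SD of 0.447 against 0.0849 in high-fat mice, so its slope rests largely on control mice.

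Entered one at a time with diet, each level was followed by the same 6 members. On the pan-leukocyte level alone, edgeR called positive slopes for 6 of 7 members against 2.75% of all tested genes: 1.03 (SE 0.11) for Cd74, 1.01 for H2-Aa, 0.97 for H2-Ab1, 1.04 for H2-Eb1, 1.04 for Ctss and 0.64 for H2-DMa, with edgeR adjusted p from 0.000273 to 0.00191. On the interferon level alone it called the same 6 against 1.67% of all tested genes: 3.49 (SE 0.31) for Cd74, 3.53 for H2-Aa, 3.40 for H2-Ab1, 3.72 for H2-Eb1, 3.74 for Ctss and 2.03 for H2-DMa. On the macrophage level alone, a fit added after the data were seen, it again called these 6 against 1.84% of all tested genes. Those slopes were 1.19 (SE 0.05) for Cd74, 1.17 for H2-Aa, 1.14 for H2-Ab1, 1.21 for H2-Eb1, 1.21 for Ctss and 0.70 for H2-DMa. H2-DMb1 did not pass in any of the 3 fits, with slopes of 0.15, 0.70 and 0.19.

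Control mice 3 and 4 carried much of these calls. Without them, in fits added after the data were seen, edgeR called 0 of 7 on the pan-leukocyte level, against 0.165% of all tested genes. Those slopes were 0.90 for Cd74, 0.76 for H2-Aa, 0.77 for H2-Ab1, 0.77 for H2-Eb1, 0.74 for Ctss, 0.61 for H2-DMa and -0.06 for H2-DMb1. Before adjustment 6 of the 7 were under 0.05, but the share of all tested genes at that level is not given here. On the interferon level, again without these mice, edgeR called 2 of 7 (0.0137% of all tested genes). They were H2-Eb1 at 4.65 and Ctss at 4.57, both with an edgeR adjusted p of 0.0313. On the macrophage level it called 3 of 7: Cd74 at 1.23, H2-Aa at 1.10 and H2-Ab1 at 1.14, with edgeR adjusted p of 0.00250, 0.0456 and 0.0350, among 6 genes called in all (0.0411%).

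**Figure D4:**
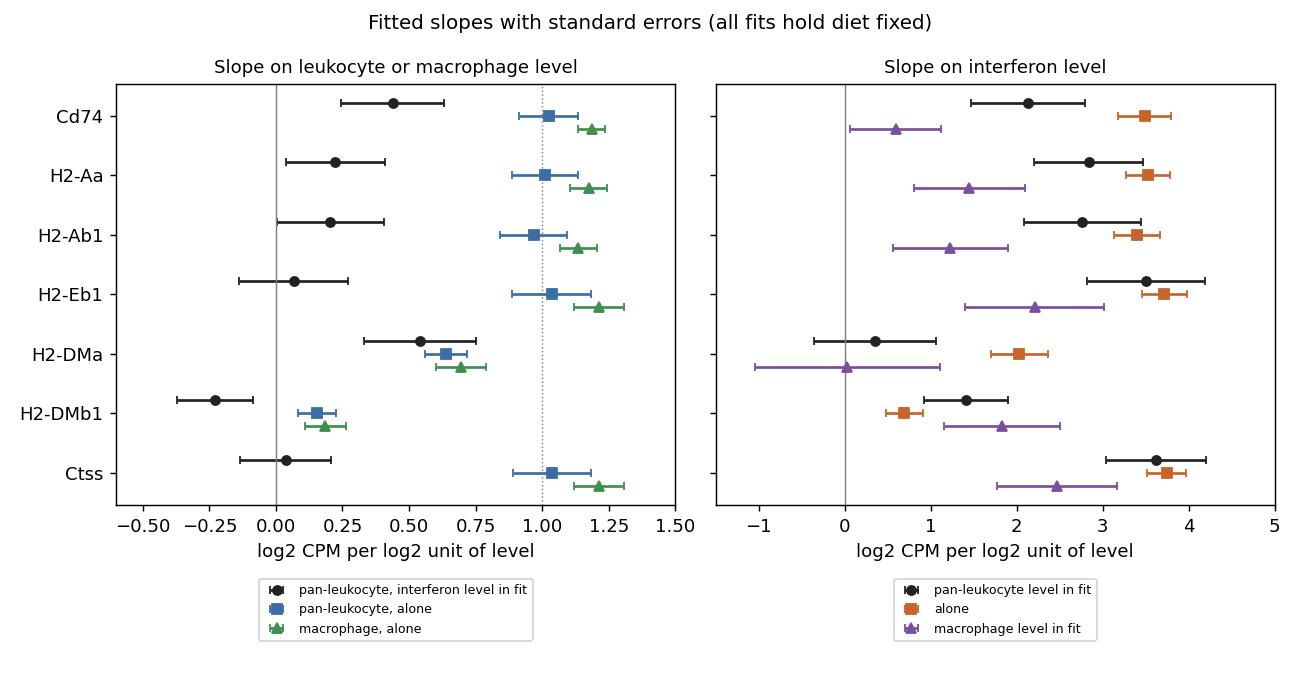
Fitted slopes of the 7 tested genes (points, with bars of 1 standard error) in log2 CPM per log2 unit of level, on the pan-leukocyte or macrophage level (left, dotted line at a slope of 1) and on the interferon level (right). Alone with diet, 5 genes lie near 1 on the left, Cd74 at 1.03 on the pan-leukocyte level and 1.19 on the macrophage level. The pan-leukocyte slope of Cd74 is 0.44 once the interferon level is in the fit, and H2-DMb1 is between -0.23 and 0.19 in the 3 fits on the left.

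The diet difference depended on which level was held fixed. With the interferon level in the fit all 7 members fell on the high-fat diet, against 1.34% of all tested genes: by 3.21 on the log2 scale for Cd74 (SE 0.21), and with log2 differences of -3.07 for H2-Aa, -3.06 for H2-Ab1, -3.08 for H2-Eb1, -3.28 for Ctss, -1.81 for H2-DMa and -0.72 for H2-DMb1. The edgeR adjusted p was 0.0284 for H2-DMb1 and at most 0.000575 for the other 6. With the pan-leukocyte level in the fit the difference was -0.71 for Cd74 and none passed. With the macrophage level the sign turned for 6 members, to 0.53 for Cd74, 0.67 for H2-Aa, 0.56 for H2-Ab1, 0.83 for H2-Eb1, 0.62 for Ctss and 0.36 for H2-DMa. It was -0.07 for H2-DMb1, and none of the 7 passed, the smallest edgeR adjusted p being 0.0652 for Cd74.

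With both the pan-leukocyte and interferon levels held fixed the diet differences were -2.21 (SE 0.50) for Cd74, -2.56 for H2-Aa, -2.59 for H2-Ab1, -2.92 for H2-Eb1, -3.20 (SE 0.43) for Ctss, -1.25 for H2-DMb1 and -0.61 for H2-DMa. None passed in edgeR, against 0% of all tested genes, though 6 of 7 were lower at an unadjusted p under 0.05, against 7.65% of all tested genes, and the adjusted p of Ctss was 0.0523. DESeq2 called 5 of 7 (0.691% of all tested genes), limma-voom none and limma-voom with sample quality weights 6 of 7, all but H2-DMa (0.711%). Without control mouse 3 edgeR called 5 of 7 (0.29%). Diet, macrophage transcripts and interferon-induced transcripts were not varied independently in these mice, so their parts in the class II levels cannot be told apart.

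The tested genes whose log2 CPM was most like the mean of H2-Aa, H2-Ab1, H2-Eb1 and Cd74 over the 10 libraries were named as a description, with no test. In order of Pearson's r they were Fcgr1 (0.992), a high-affinity IgG receptor, Cx3cr1 (0.990), the fractalkine receptor, Apoe (0.987), apolipoprotein E, Ctsc (0.985), a protease that activates granule enzymes, Cd83 (0.985), a surface protein of activated antigen-presenting cells, Ncf1 (0.984), a subunit of the phagocyte oxidase, and C3ar1 (0.984), the C3a receptor. Apoe was at 69.7 ± 60.6 CPM in control and 16.2 ± 4.39 CPM in high-fat mice, and Cx3cr1 at 10.1 ± 9.77 and 1.76 ± 0.600 CPM (SD, n = 5).

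Lists differed widely by this measure. Of the 100 most alike genes, 13 were among the 16 macrophage markers and 4 among the 10 pan-leukocyte markers. None was among the 15 interferon or the 13 type I interferon genes. Median r was 0.941 for the macrophage list, 0.884 for the pan-leukocyte list, 0.228 for the interferon list, 0.0743 for the type I list and -0.0105 over all 14330 other tested genes. All these values share the same libraries, and control mice 1, 3 and 4 weigh heavily in each. They also pool the diets and leave diet out, while the interferon level averaged 7.35 in control and 7.81 in high-fat mice. A low r here therefore does not measure how members followed a level within a diet. With diet in the fit, members did follow the interferon level entered alone, as given above.

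Other cell types that carry class II left few transcripts. The 9 B cell markers, led by Pax5, Cd79a and Cd22, summed to 9 to 25 counts in control and 11 to 24 in high-fat libraries, and none of them passed the filter on low counts. The 10 dendritic cell markers, led by Zbtb46, Itgax and Ccr7, summed to 218 to 569 counts in control and 156 to 242 in high-fat libraries, and Cd209a was under 10 counts in all. Among the 3 tested, r with the class II mean ran from -0.014 to 0.822, the highest being Itgax. Itgax, an integrin found on dendritic cells and some macrophages, reached 14.7 CPM in control mouse 4 and stayed between 0.637 and 5.42 CPM in the other 9 libraries, while Zbtb46 was at 9.89 ± 1.45 CPM in control and 9.37 ± 1.78 CPM in high-fat mice (group means, SD, n = 5). The part of each cell type in the class II levels was not tested.

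Transcripts of Ifng, the gene of interferon gamma, were barely detected in these cells, which were sorted to lack CD45. They had 10 counts in the 10 libraries together and at most 3 in any library, no more than a count of 0 allows. Interferon gamma as a protein was not measured here. Among its target list 14 of 15 genes were higher on average on the high-fat diet, 8 of them at an unadjusted p under 0.05, against 5.45% of all tested genes, and none after adjustment in edgeR, with a median log2 difference of 0.46. The 16 macrophage genes were all lower, 16 at an unadjusted p under 0.05, against 6.62% of all tested genes, and none after adjustment. Their median was -2.40, and the median over the 10 pan-leukocyte genes was -1.16.

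Of 20 further genes in the table (proteases, the RFX and NF-Y subunits, H2-O and ubiquitin ligases), 16 were tested. None passed for diet, 3 were under 0.05 before adjustment in edgeR, all lower, against 6.62% of all tested genes, and the median log2 difference was -0.02. Lgmn, legumain, an endosomal protease that starts invariant chain cleavage, was at 82.7 ± 20.5 CPM in control and 55.1 ± 3.97 CPM in high-fat mice, a log2 difference of -0.59 (SE 0.15) with an edgeR adjusted p of 0.183. March1, a ubiquitin ligase that removes class II from the surface of resting antigen-presenting cells, differed by -1.71 (SE 0.64), from 1.54 ± 1.25 to 0.464 ± 0.268 CPM. Nfyb, a subunit of the Y box factor, differed by -0.19, Creb1, which also binds class II promoters, by -0.14, and Ifi30, the interferon-inducible lysosomal thiol reductase, by -0.18. Lgmn and March1 were also the most like the class II mean among these genes, with r of 0.887 and 0.882.

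None of these 16 passed for either slope in the joint edgeR fit. The smallest p for the pan-leukocyte slope belonged to Rfx5, an RFX subunit, with 0.43, Ctsl (cathepsin L) with -0.22, Ifi30 with -0.21, Rfxap with -0.17 and Creb1 with 0.13. For the interferon slope they belonged to Lgmn with 1.17, Ifi30 with 0.90, Creb1 with -0.58, Rfxap with 0.64 and Rfx5 with -1.01. The most abundant of the wider list were the proteases Ctsl, Ctsb and Ctsd, and Ctsl was at 1620 ± 183 CPM in control and 1477 ± 133 CPM in high-fat mice. H2-Eb2 had 0 counts in all 10 libraries and the pseudogene H2-Ea-ps 1 count.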

How the data were processed

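RNA was measured in 10 libraries of polyadenylated RNA, 5 per diet. The authors deposited unnormalized whole-number counts of reads for each gene, with a column for each mouse. Builds GRCm38 and mm10 and the tools BWA 0.7.12, cutadapt 1.15, DESeq2 1.24.0 and FastQC 0.11.5 are listed, without their roles, per the submitters' processing notes. How reads were counted (program, annotation, strand, reads with several positions) is not given in the sources used here, and if BWA, which does not splice, placed the reads, those across exon junctions can be lost. Of 53379 genes, 53274 matched GENCODE M21 (GRCm38) with the version ignored. Every library held at least 16513388 counts, so that 3 counts were 0.159 to 0.183 CPM. Such limits cover counting error only.

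The tests used edgeR 4.0.16 (R 4.3.3): TMM factors, filterByExpr by diet, which kept 14337 genes with 99.87% of all counts, robust quasi-likelihood fits, two-sided tests and Benjamini-Hochberg adjustment over all tested genes, threshold 0.05. The fits held diet alone, or diet with the pan-leukocyte and interferon levels (mean log2 CPM of each list, prior count 2). Standard errors are the absolute log2 value over the square root of F. Only the edgeR diet fit and the pan-leukocyte slope of the joint fit were tried on simulated counts, with changes planted in 200 genes. The other fits and tools were not. Alternatives were DESeq2 1.42.0, limma-voom (limma 3.58.1) without and, added after the data were seen, with sample quality weights, RLE factors, no filter, libraries left out, a replicate block and other covariates. All pairs of libraries differed by more than sampling noise (lowest chi-square per degree of freedom 8.29). Members, gene lists and tests were chosen with earlier results of these data known. Named were all members, the 5 genes of the wider pathway with the smallest p in each of 3 tests, the 8 genes most like the class II mean (1 is not reported here), the 3 most abundant of each marker list and those at 0. Neutrophil markers (6 genes, led by Csf3r, Cxcr2 and S100a9, 1 to 43 counts per library) and T and NK cell markers (10 genes, led by Nkg7, Ncr1 and Cd8a, 6 to 218 counts) were also summed.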

Additional observations from a re-analysis of the deposited data

How the results depend on the processing

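The diet difference stayed negative for all 7 members under every alternative except the macrophage level as a covariate, where it was 0.53 for Cd74, 0.67 for H2-Aa, 0.56 for H2-Ab1, 0.83 for H2-Eb1, 0.36 for H2-DMa and 0.62 for Ctss. Members called went from 0 to 7 with the interferon level as a covariate. Over all genes edgeR called 9 for diet, against 316 with DESeq2 (106 higher, 210 lower), 5 with limma-voom, 740 with limma-voom and sample quality weights, 53 with no filter, 276 without control mice 3 and 4, 0 with library size, 524 with the pan-leukocyte, 254 with the macrophage and 201 with the interferon level as covariates. Leaving out 1 library gave 0 members and 1 to 27 genes, most without control mouse 3.

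The pan-leukocyte slope was called for 335 genes and 0 members. It was called for 796 genes with DESeq2, 858 with limma-voom and sample quality weights, and 522 genes and 6 members without the interferon level. With the macrophage level in its place it was called for 0 (where the Cd74 slope was 1.00 against 0.44). Without the diet term it was called for 6 members, and the count over all genes is not given here. On the macrophage level alone 6 members were called, against 264 genes with a positive call (1.84% of all tested genes). Without control mice 3 and 4 and the interferon level it was called for 24 genes. On the macrophage level alone without those mice it was called for 6 genes and 3 members. Leaving out 1 library gave 0 members and 0 genes (without high-fat mouse 3) to 620 genes (without control mouse 3), and the slope ran from -0.15 to 0.35 for H2-Eb1 and from -0.13 to 0.21 for Ctss. It also turned to -0.0212 for H2-Eb1 and -0.0269 for Ctss without control mice 3 and 4, and for H2-DMb1 to 0.15 without the interferon level, 0.23 without the diet term and 0.19 on the macrophage level alone.

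The interferon slope was called for 0 genes. It was called for 122 genes and 4 members with DESeq2, 4 genes and 1 member with no filter, 247 genes and 6 members without the pan-leukocyte level, 256 genes without the diet term, and 2 genes, both members, without control mice 3 and 4 and the pan-leukocyte level. Leaving out 1 library gave 0 members and 0 to 1 genes (1 without control mouse 3), with -0.23 to 1.12 for H2-DMa. Without the diet term it turned to -0.63 for Cd74, -0.38 for H2-Aa, -0.48 for H2-Ab1, -0.17 for H2-Eb1, -0.43 for H2-DMa, -0.17 for H2-DMb1 and -0.40 for Ctss, and with the type I level to -0.66 for H2-DMa and -0.15 for H2-DMb1.

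Diet at fixed levels was called for 0 genes, against 384 genes and 5 members with DESeq2, 441 genes and 6 members with limma-voom and sample quality weights, 4 genes and 1 member with RLE factors, and 138 genes and 3 members with no filter. Leaving out 1 library gave 0 to 5 members and 0 to 144 genes, both highest without control mouse 3. The cause of these changes was not tested. Mouse numbers did not pair the samples (r between deviations of same-numbered mice from -0.36 to 0.333, none the best match). A replicate block gave 16 genes for diet and 0 for the pan-leukocyte slope, and changed no call of a member. Depth limits Ciita and H2-DMb2, with 167 and 26 counts in all.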
